A study of Mus musculus with 19 samples.

Results

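The 10 tetraspanin genes Tspan14, Tspan13, Tspan31, Cd9, Cd37, Cd53, Cd63, Cd81, Cd82 and Cd151 were measured in CD4+ T cells sorted by 2 fluorescent reporters. They were chosen by family name, around Tspan14, which had been picked out by its difference between GFP+RFP+ and GFP+RFP- cells in these same arrays. The 10 genes are read by 14 of the 55681 probes on the array, and 9 of the 10 were among the 20613 genes tested. Cd63 was well above background on 2 of 19 arrays and was not tested. All cells came from spleen and lymph nodes of adult female C57Bl/6 mice of the genotype Tg IL-2-GFP x FOXP3mRFP, so every group carried both reporters. By the reporters' names, GFP marks cells that express interleukin-2 and RFP marks cells that express Foxp3, the transcription factor of regulatory T cells. The groups were GFP+RFP+ (4 samples), GFP+RFP- (5), GFP-RFP+ (5) and GFP-RFP- (5), with 1 array per sample. The source names call both RFP+ groups regulatory T cells, while the cell type tag of every sample says conventional. The labels do not say whether the samples of a group came from separate mice, so every p-value rests on the spread between samples that could be technical replicates.

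Tetraspanins are small proteins that cross the membrane several times and gather other membrane proteins, such as integrins, receptors and proteases, into patches of the cell surface and of endosomes. Tspan14 belongs to the TspanC8 subgroup, whose members bind the protease ADAM10 and help it leave the endoplasmic reticulum and mature. Cd37 and Cd53 are found mainly on leukocytes, Cd9, Cd81 and Cd82 can costimulate T cells, Cd151 binds laminin-binding integrins, and Cd63 sits in late endosomes and exosomes.

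A probe reports only the stretch of transcript it is made from. The probe of Tspan14 is shown here because the main result rests on it, and those of Cd82 and Cd37 because probes of 1 gene gave different detection, as 30 of their 60 bases read 5′ to 3′ from the array files, with the polyadenylation hexamer AATAAA or ATTAAA in capitals where the probe holds it. All lie on the minus strand of mm9. The Tspan14 probe covers chr14:41719999-41720058. The Cd82 probes, numbered 5′ to 3′ along the gene, cover chr2:93274019-93274078, chr2:93260018-93260077 and chr2:93259269-93259327. The Cd37 probes cover chr7:52490054-52490113 and chr7:52489002-52489061. Which exon or UTR each lies in was not analysed here.
Tspan14: cttctttataacttgtatctgtccttaccg
Cd82 probe 1: gtgatcctgggcttcggggtgtggattctt
Cd82 probe 2: tatgtttgtgccggtacattcattctgaag
Cd82 probe 3: ctggaatcaattATTAAAggagggtttata
Cd37 probe 1: tggctgcacaacaatatcatctccatagtg
Cd37 probe 2: catgacacctcaAATAAAtcccctttgggt
The hexamer was in the 3′-most probes of Cd82 and Cd37 and in neither gene's other probes, and it was not in the Tspan14 probe. In all, 4 of the 14 tetraspanin probes held AATAAA or ATTAAA as written (the other 2 read Cd63 and Cd81). Of all 55602 probes of 60 bases, 13.7% held it as written, and 18.6% on either strand.

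The RNA had been amplified by a global PCR before labelling, and the arrays differed in how much they detected. The share of all probes well above background (called detected here), by the scanner software's own flag, ran between 26.08% and 38.04% on GFP+RFP+ arrays, 30.17% and 41.05% on GFP+RFP-, 22.01% and 39.39% on GFP-RFP+, and 37.79% and 44.85% on GFP-RFP- arrays. Between 6 and 11, 8 and 13, 7 and 10, and 10 and 13 of the 14 tetraspanin probes were well above background per array in the same groups. Detection was thus lower in RFP+ than in RFP- samples, and whether this has a part in the differences below was not tested beyond the values given beside them. Values are processed signals in scanner units, and levels are log2 signals relative to each array's 75th percentile, so that 0 is that percentile. Levels are compared between arrays for 1 probe, never between probes. In bulk samples fewer cells that express a gene and less RNA per cell cannot be told apart. Of 6 genes fixed as a check of the sort, Gpr83, a receptor known from regulatory T cells, rose in GFP-RFP+ cells (limma, log2 difference 6.82 ± 1.47 SE, adjusted p = 0.0331) and was detected on none of the 4 GFP+RFP+ arrays. Its call was kept in 10 of 17 other settings and 13 of 19 fits that left out an array. It was lost, among others, with detection as a covariate (adjusted p = 0.212) and within each slide. In the same comparison Ctla4 differed by -3.64 ± 1.98, Il2ra by 0.89 ± 1.85 and Ikzf2 by 2.61 ± 2.16 (limma, adjusted p = 0.282, 0.814 and 0.496). Il2 was detected on 1 GFP+RFP+ array, 2 GFP+RFP- arrays, no GFP-RFP+ array and 2 GFP-RFP- arrays. It differed by 0.72 ± 1.96 between GFP+RFP- and GFP-RFP- cells and was not called. Foxp3 itself was detected on all 19 arrays. It differed by 2.54 ± 1.10 between GFP-RFP+ and GFP-RFP- cells (limma, adjusted p = 0.187). That difference was called under 4 other scalings (between 2.39 and 4.50, adjusted p between 0.0165 and 0.0499) and was -0.21 within slide 3. Without GFP-RFP+ sample 3 it was 1.145 (limma, adjusted p = 0.234). Much of it thus rested on that sample, the only RFP+ one in which Tspan14 was detected. Between GFP+RFP+ and GFP+RFP- cells Foxp3 differed by 1.51 ± 1.17 (limma, adjusted p = 0.521).

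**Figure D1:**
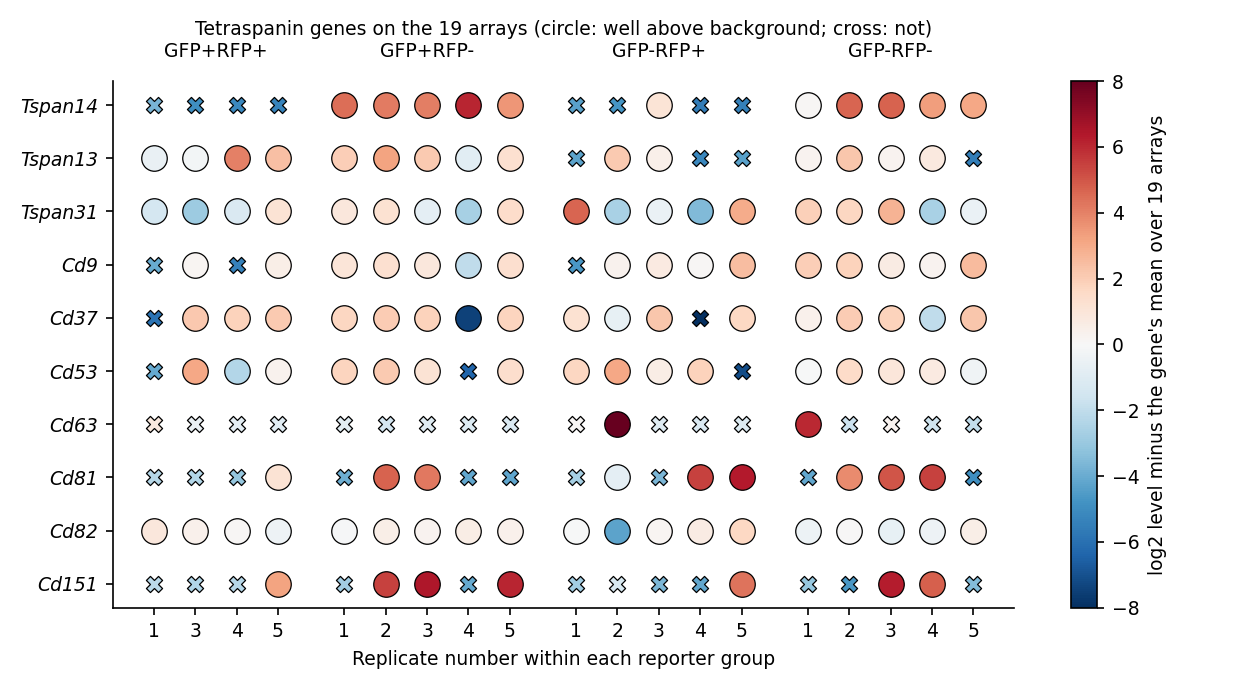
Each of the 10 tetraspanin genes (rows) on each of the 19 arrays (columns, grouped by reporter and numbered by replicate), with colour giving the log2 level minus that gene's own mean over 19 arrays, a circle where the probe was well above background and a cross where it was not. Tspan14 is detected on no GFP+RFP+ array, all 5 GFP+RFP- arrays, 1 GFP-RFP+ array and all 5 GFP-RFP- arrays, while Tspan31 and Cd82 are detected on all 19.

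Tspan14 was not well above background on 8 of 9 RFP+ arrays and was well above it on all 10 RFP- arrays, with or without GFP. In GFP-RFP+ samples 1, 2, 4 and 5 its signals were 5.10, 3.27, 3.63 and 3.69, none well above background, and sample 3 had 569. In GFP-RFP- samples 1 to 5 the signals were 381, 9987, 9921, 3245 and 2233, all well above background. The groups overlap in a single pair, since GFP-RFP+ sample 3 lay above GFP-RFP- sample 1. The mean level was -9.27 ± 2.79 in GFP-RFP+ cells (SD, n = 5) and -2.27 ± 1.87 in GFP-RFP- cells (SD, n = 5), a log2 difference of -7.01 ± 1.12 (SE). Tspan14 fell in this comparison (limma, adjusted p = 0.00921 over all genes), as did 254 of the 351 genes called, out of 20613 (1.7% called). That split depended on the scaling: 3509 of 4027 calls were higher with the 75th percentile taken over all probes, and 2892 of 3521 after quantile normalization, with Tspan14 lower in both. A two-sided exact permutation test of the 5 against 5 samples gave p = 0.0159, where 0.00794 is the smallest p that 252 splits can give. The gene was chosen with results of these arrays known, so neither this p nor the limma p is independent support. The limma fit also shares its estimate of the spread with the GFP+ arrays that picked the gene.

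In the GFP+ cells, on which the choice of the gene rested, the values are given as a description with no test. In GFP+RFP+ samples 1, 3, 4 and 5 Tspan14 had signals of 7.31, 4.38, 3.34 and 3.33, none well above background. In GFP+RFP- samples 1 to 5 it had 7527, 6234, 4996, 12386 and 3455, all well above background. The mean level was -10.23 ± 0.74 in GFP+RFP+ cells (SD, n = 4) and -0.98 ± 0.98 in GFP+RFP- cells (SD, n = 5), and the groups did not overlap. Setting each GFP+RFP+ array at its lowest signal well above background, Tspan14 was at least 152.5-fold lower in GFP+RFP+ cells under the main scaling. With normexp background correction the log2 difference was -5.29, a smaller fall than this bound. Of all genes, 42 were called in this comparison (0.204%), 24 of them lower, against 10 of 10 lower with the 75th percentile taken over all probes and 4591 of 4873 higher with normexp background correction.

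By mean level both RFP- groups lay above both RFP+ groups. Levels in the RFP+ groups were not above background except in GFP-RFP+ sample 3, so these groups have no order between them. The RFP- groups overlapped, with a log2 difference of 1.29 ± 1.12 (SE) between GFP+RFP- and GFP-RFP- cells. The RFP+ groups overlapped too, with -0.96 ± 1.19 between GFP+RFP+ and GFP-RFP+ cells. The RFP difference in GFP+ cells minus that in GFP- cells was -2.25 ± 1.64. These 3 values share arrays with the difference that picked the gene and are given with no test.

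**Figure D2:**
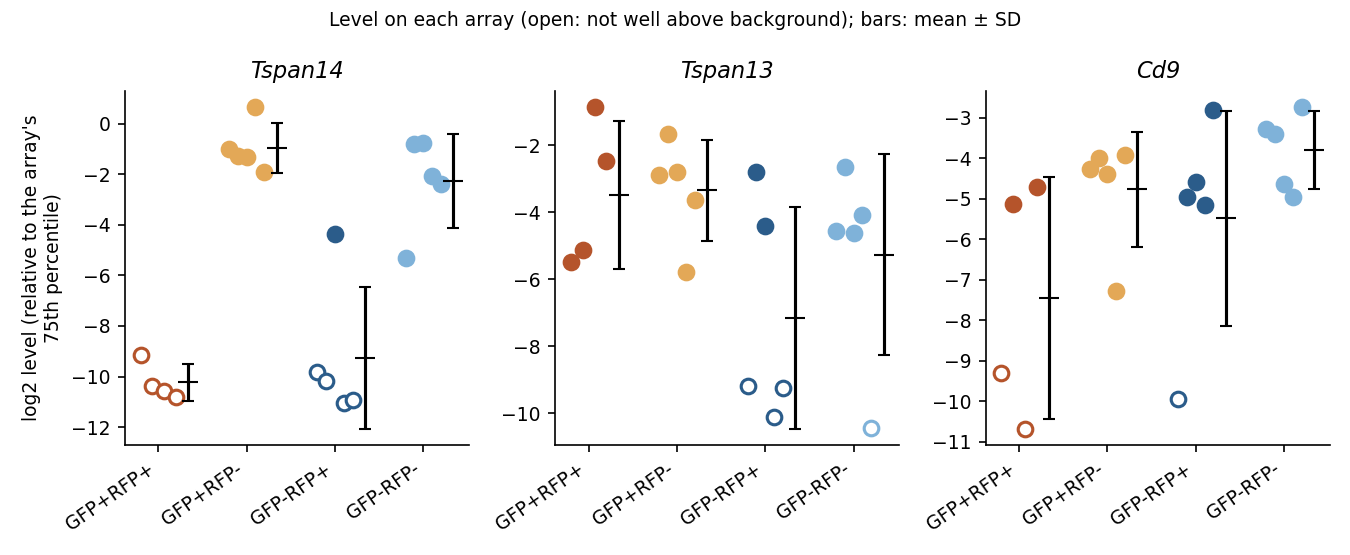
Log2 level of Tspan14, Tspan13 and Cd9 on each array by reporter group, relative to the array's 75th percentile; filled points are well above background, open points are not, and the bars give the mean ± SD over 4 GFP+RFP+ arrays and 5 arrays of each other group. Tspan14 separates RFP+ from RFP- samples except for GFP-RFP+ sample 3, while Tspan13 and Cd9 spread over much of their range within RFP+ groups.

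Detection of Tspan14 did not follow the array's overall detection in every case. The highest Tspan14 signal, 12386, came from GFP+RFP- sample 4, an array with 30.17% of probes well above background. GFP+RFP+ sample 4 had 38.04% of probes well above background and a Tspan14 signal of 3.34. The GFP-RFP+ sample with Tspan14 above background, sample 3, was the best detected of its group at 39.39%. With each array's detection percentage in the fit as a covariate, the GFP-RFP+ minus GFP-RFP- difference was -6.00 and no longer called (limma, adjusted p = 0.297), and without the 3 arrays under 30% it was -6.23 (adjusted p = 0.0686). Within slides 1, 2 and 3 it was -4.05, -8.76 and -8.61, not called on any (adjusted p = 0.573, 0.114 and 0.138). Slide 1 holds the overlapping samples, and on slides 2 and 3 a group had 1 array, assumed to vary like the others. It stayed called when each of the 19 arrays was left out in turn, between -8.23 and -6.56.

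**Figure D3:**
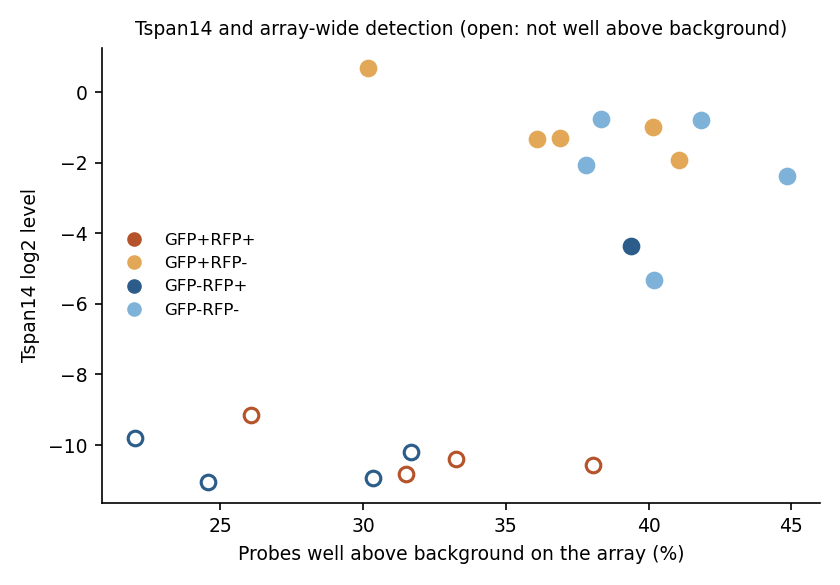
Tspan14 log2 level against the percent of all probes well above background, 1 point per array, coloured by reporter group and open where Tspan14 was not well above background. RFP+ arrays span 22.01% to 39.39% and RFP- arrays 30.17% to 44.85%, and where the ranges share values Tspan14 is detected on every RFP- array and on 1 RFP+ array.

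This pattern of detection was taken from Tspan14 itself, partly on the arrays that picked it, so its count is a description. Of the 20613 genes tested, 18 (0.0873%), Tspan14 included, were well above background on all 10 RFP- arrays and on at most 1 of 9 RFP+ arrays. The genes well above background on all 10 RFP- arrays, which alone could show it, numbered 8465 (41.1%). The opposite pattern was shown by 0 genes, on arrays where detection was lower in RFP+ samples. The 5 genes with a usual symbol whose levels followed Tspan14 most closely over the 19 arrays, among 11584 compared, were Trmt10c (Pearson r = 0.95), Rbmxl1 (0.94), Tmem50a (0.93), Gtpbp1 (0.93) and Ifit1 (0.92). Each was detected on every RFP- array, on at most 1 GFP+RFP+ array and on at most 2 GFP-RFP+ arrays. The points share arrays whose overall detection differs, so these correlations are a description. Among the other tested genes of the 10 chosen tetraspanins the closest was Cd9, with r = 0.38, and the remaining 7 lay between -0.002 and 0.26.

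In the TspanC8 subgroup, 5 of 6 genes were tested. Tspan14 alone was called in GFP-RFP+ against GFP-RFP- cells, where 1.7% of all genes were called. Under 5 other scalings 2 or 3 of the 5 were called, against between 2170 and 4750 of all 20613 genes. Only 2 of the 5 were lower under these scalings, so where 3 were called not every call was a fall. Tspan5 was detected on 1 GFP+RFP+ array, 3 GFP+RFP- arrays, 1 GFP-RFP+ array and 3 GFP-RFP- arrays. Its difference was -5.62 ± 2.39 between GFP-RFP+ and GFP-RFP- cells (limma, adjusted p = 0.18). Tspan10 was above background on all 19 arrays, with a difference of 1.19 (adjusted p = 0.152), and Tspan15 differed by 1.98 (adjusted p = 0.184). Tspan17 differed by -0.20 (adjusted p = 0.96), and Tspan33 was above background on no array. Adam10, the protease these proteins bind, was detected on no GFP+RFP+ array, 2 GFP+RFP- arrays, 1 GFP-RFP+ array and all 5 GFP-RFP- arrays. Its difference was -5.87 ± 2.01 between GFP-RFP+ and GFP-RFP- cells (limma, adjusted p = 0.114) and -2.65 ± 2.13 between GFP+RFP+ and GFP+RFP- cells (adjusted p = 0.537). Neither passed the test.

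Of the 9 tested tetraspanins, the 8 other than Tspan14 passed the test in no comparison. Between GFP-RFP+ and GFP-RFP- cells the other 8 differed by between -1.88 and -0.10, with standard errors between 0.78 and 2.64 (limma, adjusted p between 0.455 and 0.986). All 9 had negative differences, with a median of -1.49, against a median of -0.29 over all genes, of which 57.1% were negative. Under 5 other scalings, which put the median of all genes between 0.25 and 1.02, 5 to 6 of 9 were negative. Relative to the median of all genes, 7 of 9 lay below it here and 6 to 9 of 9 under the other scalings. At an unadjusted p under 0.05, 1 of 9 tetraspanins was counted, Tspan14, and 22.6% of all genes. None of the 9 had groups that did not overlap, against 6.67% of all genes.

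Between GFP+RFP+ and GFP+RFP- cells the other 8 differed by between -3.14 and 0.08 (limma, adjusted p between 0.314 and 0.991). The median of the 9 was -0.98, against 0.22 over all genes, of which 44.1% were negative, and 8 of the 9 were negative (6 to 9 under the other scalings). These values include Tspan14, whose sign was set by its choice on this difference. Without it 7 of 8 were negative. Of the 8 other than Tspan14, 0 had an unadjusted p under 0.05, against 17.4% of all genes.

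**Figure D4:**
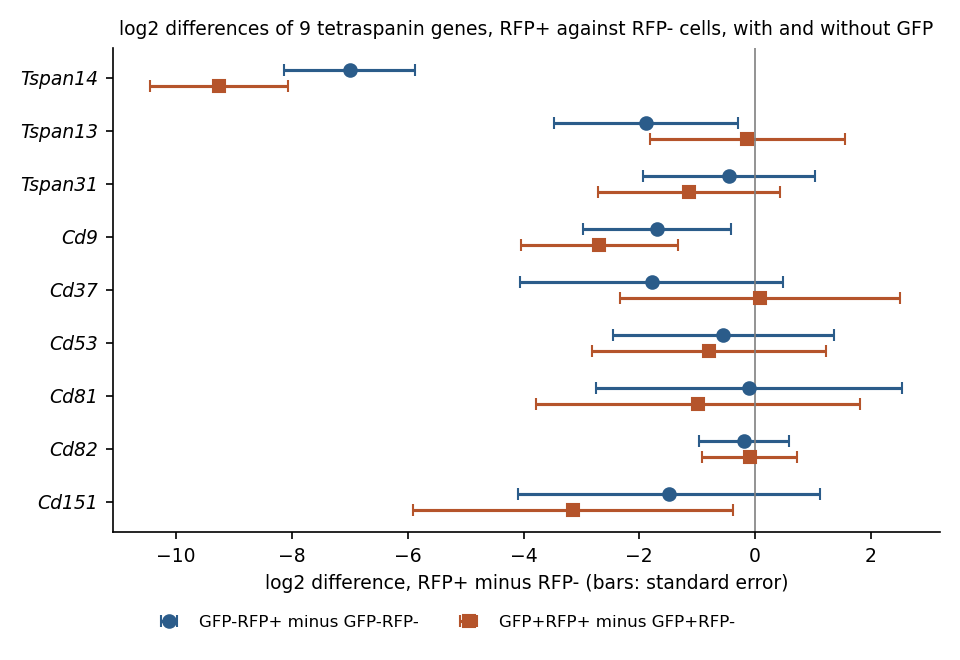
Log2 difference with its standard error for the 9 tested tetraspanin genes, RFP+ minus RFP- cells, shown for GFP- cells (circles) and GFP+ cells (squares). Tspan14 lies at -7.01 and -9.25, and the other 8 lie between -3.14 and 0.08 with bars of up to 2.80.

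GFP made no difference that passed the test for any of the 8 tested genes other than Tspan14. Between GFP+RFP- and GFP-RFP- cells 5 of the 8 were negative and 0 were called, against 2 of all genes (0.0097%), and at an unadjusted p under 0.05 there were 0 of 8 against 5.15% of all genes. Between GFP+RFP+ and GFP-RFP+ cells 4 of the 8 were negative and 0 were called, against 1 of all genes (0.00485%), and at an unadjusted p under 0.05 there was 1 of 8, Tspan13, against 5.41% of all genes. The RFP difference itself was not called as different between GFP+ and GFP- cells for any of the 8, against 2 of all genes (0.0097%). At an unadjusted p under 0.05 the counts for that difference were 0 of 8 and 4.91% of all genes.

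Tspan13 had the largest difference by GFP among the 9 tested genes of the 10 chosen tetraspanins. In GFP+RFP+ samples 1, 3, 4 and 5 its signals were 92.4, 167.5, 2825 and 1068, all well above background. In GFP-RFP+ samples 1 to 5 they were 7.81, 548, 552, 6.99 and 12.0, with only samples 2 and 3 above background. The mean level was -3.49 ± 2.21 in GFP+RFP+ cells (SD, n = 4) and -7.15 ± 3.31 in GFP-RFP+ cells (SD, n = 5), a difference of 3.66 ± 1.68 (SE; limma, unadjusted p = 0.0439, adjusted p = 0.909). The groups overlapped, because GFP-RFP+ sample 2 lay above GFP+RFP+ samples 1 and 3. Among RFP- cells Tspan13 was detected in all 5 GFP+RFP- samples, with signals between 142.5 and 4782, and in 4 of the GFP-RFP- samples, where signals lay between 8.35 and 2760.

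Cd9, a costimulatory tetraspanin also found in exosomes, was above background on all RFP- arrays and on some of the RFP+ arrays. In GFP+RFP+ samples 1, 3, 4 and 5 its signals were 6.53, 166, 3.104 and 227, with samples 1 and 4 not above background. In GFP+RFP- samples 1 to 5 they were 778, 954, 601, 49.9 and 864. The mean level was -7.46 ± 2.98 in GFP+RFP+ cells (SD, n = 4) and -4.77 ± 1.42 in GFP+RFP- cells (SD, n = 5), a difference of -2.69 ± 1.36 (SE) that did not pass the test (limma, adjusted p = 0.314). GFP+RFP- sample 4, at 49.9, lay below 2 of the GFP+RFP+ samples. In GFP-RFP+ samples 1 to 5 the signals were 4.67, 123.5, 488, 214 and 1038, with only sample 1 not above background. In GFP-RFP- samples 1 to 5 they were 1588, 1636, 670.0, 436 and 1759. The difference of -1.69 ± 1.28 (SE) did not pass the test either (limma, adjusted p = 0.455).

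Cd37 and Cd53, the leukocyte tetraspanins, were detected in nearly every sample and were very low on single arrays scattered over the groups. Cd37 (probe 1) had signals of 32.5, 11935, 8677 and 12064 in GFP+RFP+ samples 1, 3, 4 and 5. It had 23010, 29472, 20607, 20.2 and 20722 in GFP+RFP- samples 1 to 5. GFP-RFP+ samples 1 to 5 had 4946, 1119, 25528, 7.12 and 10729. GFP-RFP- samples 1 to 5 had 9349, 32738, 27716, 1531 and 24941. The low arrays were 1 in each of the first 3 groups, and the group means differed by less than the spread between samples (limma, adjusted p = 0.677 for GFP-RFP+ minus GFP-RFP- and 0.991 for GFP+RFP+ minus GFP+RFP-).

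On the arrays where Cd37 probe 1 was low, probe 2, which lies 1052 bases further 3′ along the genome and holds the hexamer, still gave signal. On GFP+RFP+ sample 1 it read 328, on GFP+RFP- sample 4 it read 3184, and on GFP-RFP+ sample 4 it read 1347, all well above background. The reverse held on GFP-RFP+ sample 1, where probe 2 read 28.4, its lowest signal, and probe 1 read 4946. Probe 2 was above background on all 19 arrays and probe 1 on 17.

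Cd53 had signals of 22.3, 4564, 90.8 and 687 in GFP+RFP+ samples 1, 3, 4 and 5, the first not above background. It had 4818, 6133, 2565, 8.62 and 3249 in GFP+RFP- samples 1 to 5, with sample 4 not above background. In GFP-RFP+ samples 1 to 5 it had 1382, 3014, 1635, 2538 and 4.78, with sample 5 not above background. In GFP-RFP- samples 1 to 5 it had 1380, 4610, 3004, 2031 and 864, all above background. Its differences were -0.55 ± 1.91 between GFP-RFP+ and GFP-RFP- cells and -0.79 ± 2.02 between GFP+RFP+ and GFP+RFP- cells (SE; limma, adjusted p = 0.894 and 0.877).

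Cd82, which associates with integrins and costimulates T cells, had the smallest standard errors of the 9 genes at its 3′-most probe, the one tested. Probe 3 had levels of 0.36 ± 0.54 in GFP+RFP+ cells (SD, n = 4), 0.45 ± 0.28 in GFP+RFP- cells, -0.26 ± 2.28 in GFP-RFP+ cells and -0.08 ± 0.47 in GFP-RFP- cells (SD, n = 5 each). The wide spread in GFP-RFP+ cells came from sample 2, with a signal of 213 against 4782 to 24496 in the other 4 samples. Its differences were -0.19 ± 0.78 between GFP-RFP+ and GFP-RFP- cells and -0.09 ± 0.82 between GFP+RFP+ and GFP+RFP- cells (SE; limma, adjusted p = 0.913 and 0.97).

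Probe 1 of Cd82, 14751 bases away along the genome, was lower in GFP-RFP+ cells, where samples 1 to 5 had signals of 36.5, 35.1, 2014, 15.2 and 40.6. In GFP-RFP- samples 1 to 5 they were 4752, 1371, 15118, 9064 and 19675. GFP-RFP+ sample 3 lay above GFP-RFP- sample 2, so the groups overlapped. The difference of -5.48 ± 1.83 (SE) had an unadjusted p of 0.00804 and did not pass the test over all probes (limma, adjusted p = 0.114). In GFP+RFP+ samples 1, 3, 4 and 5 the signals were 471, 1917, 5078 and 21.2, and in GFP+RFP- samples 1 to 5 they were 8905, 110.5, 16376, 35.2 and 15336. Probe 2 was above background on 16 arrays and missing on GFP+RFP+ sample 4, GFP+RFP- sample 4 and GFP-RFP+ sample 2, at signals between 3.13 and 3.69, while probe 3 was above background on all 3 of these.

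**Figure D5:**
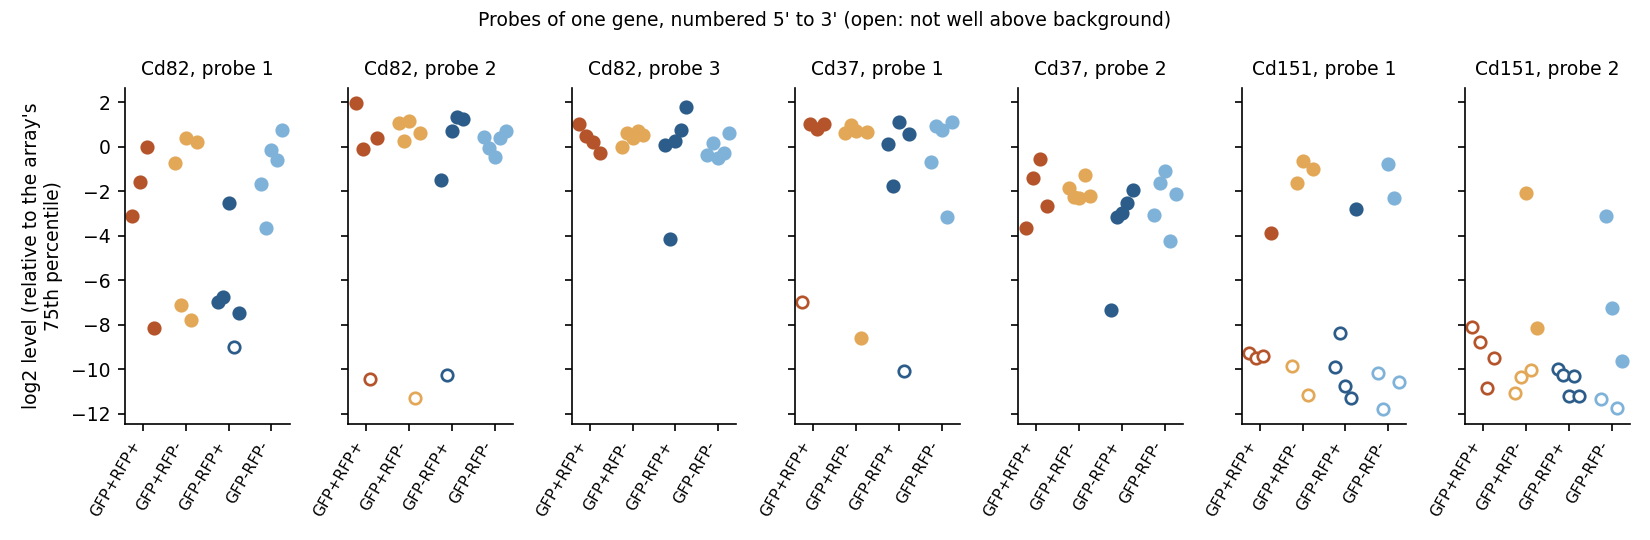
Log2 level on each array by reporter group for the 3 Cd82, 2 Cd37 and 2 Cd151 probes, numbered 5′ to 3′, with open points not well above background. The 3′-most probes of Cd82 and Cd37 are above background on all 19 arrays, while Cd82 probe 2 and Cd37 probe 1 are missing on 3 and 2 arrays that their 3′ partners detect.

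Cd81, which can costimulate T cells, was detected on 9 of 19 arrays and split within every group. It was above background in 1 of 4 GFP+RFP+ samples (sample 5, signal 115), and in GFP+RFP- samples 2 and 3 (3574 and 2007). It was also above background in GFP-RFP+ samples 2, 4 and 5 (19.4, 2968 and 5157) and in GFP-RFP- samples 2, 3 and 4 (2110, 4838 and 5201). On the other 10 arrays the signal lay between 3.22 and 10.0, and the group differences had standard errors of up to 2.80 (limma, adjusted p = 0.986 for GFP-RFP+ minus GFP-RFP- and 0.892 for GFP+RFP+ minus GFP+RFP-).

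Cd151, the partner of laminin-binding integrins, was detected on 7 arrays by its 5′ probe, which was the one tested, and on 5 by its 3′ probe, and on only 3 arrays by both. The 5′ probe was above background in GFP+RFP+ sample 5 (407), in GFP+RFP- samples 2, 3 and 5 (4942, 8033 and 6527), in GFP-RFP+ sample 5 (1053) and in GFP-RFP- samples 3 and 4 (9587 and 2765). Its difference was -3.14 ± 2.77 between GFP+RFP+ and GFP+RFP- cells (SE; limma, adjusted p = 0.58). Cd63, a protein of late endosomes and exosomes, was above background in GFP-RFP+ sample 2 (3258) and GFP-RFP- sample 1 (999.8) alone, with signals between 2.88 and 20.0 on the other 17 arrays.

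Tspan31 was above background on all 19 arrays, with signals that ranged widely inside each group. They ran between 25.5 and 449 on GFP+RFP+ arrays, 40.4 and 1226 on GFP+RFP-, 20.8 and 3916 on GFP-RFP+, and 75.02 and 3749 on GFP-RFP- arrays. The groups overlapped in all comparisons, and the difference between GFP+RFP+ and GFP+RFP- cells was -1.15 ± 1.57 (SE; limma, adjusted p = 0.741).

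Of 21 further tetraspanin genes, all on the array, 9 passed the filter and 0 were called in the comparisons of RFP+ with RFP- cells, against 1.7% of all genes in GFP- cells and 0.204% in GFP+ cells. At an unadjusted p under 0.05 there were 3 of 9 in GFP- cells and 4 of 9 in GFP+ cells, against 22.6% and 17.4% of all genes. Under the 5 other scalings, which called between 2170 and 4750 of the 20613 genes in GFP- cells, between 2 and 4 of the 9 were called there. In GFP+ cells 5 of the 9 were called with normexp background correction, which called 4873 of all genes, and 0 under the other 4 scalings. Tspan3 differed by -5.29 ± 1.68 between GFP+RFP+ and GFP+RFP- cells (SE; limma, adjusted p = 0.139) and was above background on 1 of 4 and 4 of 5 arrays. Tspan32, a tetraspanin of blood cells, differed by -5.19 ± 2.40 (adjusted p = 0.277) and was above background on 2 of 4 and 4 of 5 arrays. Tspan10 differed by 1.28 ± 0.49 (adjusted p = 0.199). Upk1a, above background on 0 arrays of these groups, differed by 1.32 ± 0.49 (adjusted p = 0.188). Of the 9, 5 were higher in RFP+ cells among GFP- cells and 6 among GFP+ cells. Their median differences were 0.15 and 1.13, against -0.29 and 0.22 over all genes.

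Of 29 genes known to act with tetraspanins, 25 were tested, and 1 was called between GFP-RFP+ and GFP-RFP- cells, against 1.7% of all genes. Under other scalings 1 to 5 of the 25 were called, against between 2170 and 4750 of all 20613 genes. Itgb1, the integrin β1 chain, fell by 7.19 ± 1.55 on the log2 scale in GFP-RFP+ cells, where 1 array detected it, against all 5 GFP-RFP- arrays (limma, adjusted p = 0.0331). Its call was kept in 9 of 17 other settings and 12 of 19 fits that left out an array. It was lost within each slide, with detection as a covariate (-3.99, adjusted p = 0.565), without arrays under 30% (-6.29, adjusted p = 0.0949), with the mean of its probes (-6.65, adjusted p = 0.0599), after quantile normalization (-6.14, adjusted p = 0.0623) and with normexp (-3.42, adjusted p = 0.0948). It was detected on 2 GFP+RFP+ arrays, against all 5 GFP+RFP- arrays, with a difference of -5.97 ± 1.64 (adjusted p = 0.115). Sdcbp, the adaptor syntenin that binds Cd63 in exosome formation, was detected on no GFP+RFP+ array, 4 GFP+RFP- arrays, 1 GFP-RFP+ array and all 5 GFP-RFP- arrays. It differed by -5.61 ± 1.83 in GFP- cells and -6.07 ± 1.94 in GFP+ cells (SE; limma, adjusted p = 0.101 and 0.141). Notch1 differed by 1.85 ± 0.56 and 1.04 ± 0.60 in the same comparisons (adjusted p = 0.0872 and 0.373). In both comparisons 19 of the 25 partners were negative, against 57.1% of all genes in GFP- cells and 44.1% in GFP+ cells. Under the other scalings 14 to 18 were negative in GFP- cells and 17 to 19 in GFP+ cells. The median was -1.68 in GFP- cells and -1.50 in GFP+ cells, against -0.29 and 0.22 over all genes. Between GFP+RFP+ and GFP-RFP+ cells, Prkcb differed by -6.24 ± 1.64 and Itgb2 by 6.25 ± 1.83 (SE, limma, adjusted p = 0.568 and 0.714).

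Since Cd37, Cd53, Cd81 and Cd9 are also made by B cells, myeloid cells or platelets, the markers of those cells were read on the same arrays. Of 7 B cell markers on the array, between 2 and 4 were above background on GFP+RFP+ arrays, 3 and 5 on GFP+RFP-, 2 and 4 on GFP-RFP+ and 3 and 6 on GFP-RFP- arrays. Their summed level, in multiples of the 75th percentile signal, ran between 0.142 and 0.964 on GFP+RFP+ arrays, 0.180 and 2.16 on GFP+RFP-, 0.0481 and 1.19 on GFP-RFP+, and 0.339 and 1.303 on GFP-RFP- arrays. Cd79b, a chain of the B cell receptor, fell by 6.34 ± 1.51 on the log2 scale in GFP-RFP+ against GFP-RFP- cells (SE; limma, adjusted p = 0.0429). That call was kept in 10 of 17 other settings and 7 of 19 fits that left out an array, and was lost with detection as a covariate (-3.54, adjusted p = 0.584), without arrays under 30% (-5.88, adjusted p = 0.112) and within each slide. Ms4a1, which encodes CD20, was detected on 1 array in all, a GFP-RFP- one, while Cd22 and Pax5 were detected on all 19. With RFP, Cd22 differed by -0.40 among GFP- cells and 0.33 among GFP+ cells, and Pax5 by 0.70 and 0.57. Of the 5 B cell markers tested, 4 were lower and 1 was higher with RFP among GFP- cells. Among GFP+ cells 3 were lower and 2 were higher. The summed level of 8 myeloid and dendritic markers, on the same scale, ran between 13.1 and 30.95 on GFP+RFP+ arrays and 8.09 and 12.6 on GFP+RFP- arrays, and the ranges of these groups did not overlap. It lay between 8.09 and 23.9 on GFP-RFP+ arrays (median 17.7) and between 8.16 and 10.5 on GFP-RFP- arrays (median 8.79), and these ranges overlapped. Itgam alone of the 8 had a mean level above 0 in any group, so these sums follow Itgam more than the markers as a set. With RFP it was higher by 1.17 ± 0.37 among GFP- cells and 1.12 ± 0.39 among GFP+ cells (SE; limma, adjusted p = 0.0944 and 0.168). Tyrobp and Fcer1g differed by -8.62 and -5.09 with RFP among GFP- cells (adjusted p = 0.118 and 0.103). Of the 7 tested markers, 4 were higher with RFP among GFP- cells and 5 among GFP+ cells. None of the 7 was called between RFP+ and RFP- cells. Under each of 5 other scalings 1 or 2 were called in GFP- cells, against between 2170 and 4750 of all 20613 genes. With normexp 1 was called in GFP+ cells, against 4873 of all genes. The 2 of 6 platelet, 1 of 3 erythroid and 4 of 6 CD8 T and NK cell markers that were tested were not called under any of the 6 scalings, nor were the 8 T cell markers, of which 6 to 8 were above background on every array. The platelet gene Pf4 was above background on 2 of 19 arrays, and the dendritic cell marker Itgax on 0. The part of other cells in the Tspan14 and Itgb1 differences was not tested.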

How the data were processed

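CD4+ T cells were profiled on 19 one-colour Agilent arrays, 1 per sample. Per the labels' protocols, RNA was purified on columns, amplified as mRNA-derived cDNA with a global PCR, then Cy3-labelled. The spot intensity values were deposited by the authors as written by Agilent Feature Extraction 10.7.3.1, per the submitters' processing notes. The processed intensity is already background-corrected, per the file headers. The log2 values of a second deposited table, with column medians between 3.21 and 3.226 and an unstated normalization and centring, served as an alternative (r with the log2 intensities of at least 0.949 per array).

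Here the 3671 control spots of 62976 and 3296 outlier spots over all arrays were left out, spots of a probe were averaged, and log2 intensities were centred on each array's 75th percentile taken over the 6610 probes that every array detected well above background. The 28094 probes detected on 4 or more arrays were kept, with the probe of the highest mean level per gene (20613 genes). Names came from RefSeq accessions for 27235 of 55681 probes and otherwise from the array files. The 4 groups were fitted together in limma 3.58.1 (R 4.3.3), with Benjamini-Hochberg adjustment over all genes and calls at an adjusted p of 0.05. The procedure was tested on simulated data that redrew each gene's residuals separately. Array-wide differences in detection and scaling were not simulated, so that test does not cover them. Precision is limited by the number of arrays. Genes named were the 10 tetraspanins, the 5 genes closest to Tspan14, and from each list up to 3 with the smallest p. Adam10, Sdcbp, Notch1, Tspan32, Il2, Il2ra and Ikzf2 were named beyond this rule. Marker genes singled out for their detection (Pf4, Ms4a1, Itgax, Cd22 and Pax5) and the TspanC8 genes beyond those 3 were picked after seeing their values. The members and lists were chosen with earlier results of these data known. Alternatives covered scaling, background correction, filters, probe choice, replicate and slide blocks, detection as a covariate and leaving out arrays. Exons and UTRs were not analysed here.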

Additional observations from a re-analysis of the deposited data

Results flagged for a closer look

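Among 40 combinations of a tetraspanin gene and a reporter group, 12 held a sample whose gap to its nearest neighbour exceeded Dixon's critical value for its group size. Chance flags about 1 in 20 groups of normally distributed values. Many levels here lie either near the floor or far above it, so 1 sample on the other side can raise the flag. The rate of 1 in 20 is therefore no measure for these groups. Levels are log2 values relative to the array's 75th percentile.

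In 4 of them the sample was the high one. Tspan14 stood at -4.36 in GFP-RFP+ sample 3, and the next highest sample was at -9.81. Cd63 stood at -0.23 in GFP-RFP+ sample 2 and -3.94 in GFP-RFP- sample 1, its only detected samples. Cd151 stood at -3.87 in GFP+RFP+ sample 5.

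In the other 8 the sample was the low one. In GFP+RFP- sample 4 this held for 3 genes, Cd9 at -7.28, Cd37 at -8.59 and Cd53 at -9.82. Cd37 also stood apart at -6.99 in GFP+RFP+ sample 1 and -10.08 in GFP-RFP+ sample 4. The remaining 3 were Cd53 at -10.57 in GFP-RFP+ sample 5, Cd82 at -4.16 in GFP-RFP+ sample 2 and Tspan13 at -10.45 in GFP-RFP- sample 5.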

How the results depend on the processing

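The Tspan14 difference between GFP-RFP+ and GFP-RFP- cells stayed called and negative in 12 of 17 settings, and on leaving out each array (-8.23 to -6.56). It lost its call within slides 1 (-4.05), 2 (-8.76) and 3 (-8.61), with detection as a covariate (-6.00) and without arrays under 30% detected (-6.23); fewer arrays enter the slide fits and the last one, and otherwise the cause was not tested. The count of tetraspanins called was then 0 in place of 1, and also 0 for both RFP comparisons when a probe had to be above background on every array, which removes Tspan14. For GFP+RFP+ minus GFP+RFP-, which picked the gene, the Tspan14 differences within slides 1, 2 and 3 were -8.60, -10.27 and -8.88, given with no test. Of the 9 tested, no tetraspanin but Tspan14 was called under any of these settings, and no called difference of the 9 changed sign; further tetraspanins outside the 10 were called under other scalings. With normexp the Tspan14 difference was -3.72. A replicate block gave -7.01 (adjusted p = 0.017) and changed none of the tetraspanin calls; same-numbered samples' deviations correlated between -0.0742 and 0.0934, so the numbers were not taken as pairs. Over all genes the block called 199 in place of 351 between GFP-RFP+ and GFP-RFP- cells and 8 in place of 42 between GFP+RFP+ and GFP+RFP- cells. In the first comparison 97 of 351 calls were higher, against 3509 of 4027 (75th percentile over all probes), 1615 of 2170 (median centring), 2892 of 3521 (quantile), 4004 of 4750 (normexp) and 2974 of 3643 (deposited table). In the second 18 of 42 were higher, against 0 of 10, 0 of 16, 7 of 26, 4591 of 4873 and 5 of 23. Levels not above background have no order, which limits differences of genes undetected in a group.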
